A study of Rattus norvegicus with 10 samples.

Results

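Hepcidin and its BMP-SMAD regulators are the subject here: the hormone gene Hamp and the genes Hfe, Tfr2, Tmprss6, Bmp6, Id1, Smad6, Smad7, Atoh8 and Neo1. A probe set was taken when the platform annotation paired it with exactly 1 gene and that gene was one of these 10. By this rule 9 of the 10 genes had a probe set, and Tmprss6 was not measured. The 9 genes had 19 probe sets of the 31042 tested, with several probe sets for 4 genes and 1 for each of the other 5. Where a gene had several, the one with the highest mean over all arrays (the brightest) stands for it.

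Liver RNA of 10 male Sprague-Dawley rats was hybridized to 1 Affymetrix rat genome array each. The iron-deficient group (5 rats) ate freely, for 3 days, a diet with about 3 ppm iron from which ferric citrate had been left out. The pair-fed group (5 rats) received amounts of the control diet (48 ppm iron) matched to the iron-deficient group's intake. All rats were bought at 3 weeks of age, are labelled as 5 weeks old, had been trained to eat in the day, and were killed 1.5 h into feeding by the labels or 1.5 h after it by the methods. One label of the pair-fed samples names the iron-deficient diet as well, and the groups were taken from the title and the treatment, which name the control diet. Values are log2 robust multiarray average (RMA) signals, whose medians per array ranged from 6.19 to 6.22. The 5 hepatocyte markers (Alb, Ttr, Apoa1, Cps1 and Hnf4a) averaged 14.33 ± 0.02 in the iron-deficient group and 14.30 ± 0.03 in the pair-fed group (SD, n = 5 each). In whole liver, fewer cells of a type and less RNA per cell cannot be told apart.

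Hepcidin is a peptide hormone that hepatocytes release into the blood. It binds the iron exporter ferroportin and has it degraded, so that less iron enters the plasma from the gut and from macrophages. In hepatocytes its gene is switched on by bone morphogenetic proteins (BMPs), chiefly BMP6 from the sinusoidal endothelium, through BMP receptors, the co-receptor hemojuvelin and the SMAD transcription factors; inflammation acts on it through IL-6 and STAT3.

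The promoter of Hamp is shown because known inputs of the gene meet in it. RefSeq promoter sequences (assembly GRCr8, 250 bases before to 50 after each annotated start) were at hand for 7 of the members, all but Hfe and Smad6 of the 9 measured. The stretch below covers the 150 bases before the start of Hamp, chr1:95300272-95300421 on the minus strand. Capitals mark, in order, GGCGCC (the core of the BMP-responsive element described in the human and mouse genes), TTCTTGGAA (a match to the STAT motif TTCNNNGAA) and TGAGTCA (a match to the AP-1 motif TGANTCA).
Hamp: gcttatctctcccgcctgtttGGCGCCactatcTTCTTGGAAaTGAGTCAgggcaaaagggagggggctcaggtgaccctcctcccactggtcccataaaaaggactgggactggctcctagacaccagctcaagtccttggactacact

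The 3 matches lie 129 to 124, 117 to 109 and 107 to 101 bases before the start and do not overlap, and each motif reads the same on both strands. Of all 33469 promoters of this length, 11.0% held GGCGCC, 8.87% held TTCNNNGAA, 7.33% held TGANTCA and 7 held all 3. Among the 7 members, GGCGCC was also found in Smad7, at 96 to 91 and at 36 to 31 bases before the start, and in Neo1 at 24 to 19 bases before it. TTCNNNGAA and TGANTCA were found in Hamp alone of the 7. The following 30 bases, with GGCGCC in capitals, are from chr18:71263400-71263429 on the plus strand for Smad7, which encodes a feedback inhibitor of SMAD signalling, and from chr8:68322159-68322188 on the minus strand for Neo1, which encodes a binding partner of hemojuvelin. A match is a description of letters and no evidence of binding.
Smad7: cagagccagccgGGCGCCtcgctcggtccg
Neo1: acggcgcgctccGGCGCCcgccccccaccc

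Hamp was down-regulated by the rank products method, and it was the member with the largest change. Hamp (1387396_at) read 6.61, 5.99, 5.73, 5.86 and 5.87 in iron-deficient rats 1 to 5, against 6.0, 7.39, 6.30, 10.57 and 6.55 in pair-fed rats 1 to 5. Pair-fed rat 4 stood far above all other rats and pair-fed rat 2 came next, while iron-deficient rat 1 lay above the other 3 pair-fed rats, so that the groups overlapped. In linear signal pair-fed rat 4 read 1522 and pair-fed rat 2 read 168, and the other 8 rats read 53.1 to 97.6. The medians of all probe sets per array were 6.19 to 6.22 on the log2 scale. Iron-deficient rats 2, 3, 4 and 5 and pair-fed rat 1 read below them in Hamp. Whether these low values lay above background was not tested. The value of pair-fed rat 4 lay 4.14 above the median of the other pair-fed rats on the log2 scale, or 17.7-fold.

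The means of Hamp were 6.01 ± 0.35 in the iron-deficient group and 7.36 ± 1.87 in the pair-fed group (SD, n = 5 each), a log2 fold change of -1.35 (SE 0.683) or a level 2.55-fold lower. The medians were 5.87 in the iron-deficient group and 6.55 in the pair-fed group, which differ by -0.69. When each iron-deficient rat was set against each pair-fed rat, 22 of the 25 pairs had the lower value in the iron-deficient rat. The rank products, which rank the differences of these pairs on the whole table, gave a false discovery rate (FDR) of 0. This is the lowest value possible, and other probe sets shared it, among them those of the red cell genes Alas2 and Hemgn. The 25 pairs share their rats, and the permutations behind the FDR were made within arrays. The FDR therefore does not weigh a difference by the spread between rats. At this threshold (FDR under 0.05) 0.599% of all probe sets were down-regulated and 0.303% up-regulated, and of the members' 19 probe sets 1 was down-regulated, that of Hamp, and 0 up-regulated.

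Other tests of the Hamp difference did not pass. By limma the p was 0.0706 and the adjusted p 0.736, and no probe set of the whole table passed (0% past 0.05, with 0.397 as the lowest adjusted value). The exact permutation test of the means gave p = 0.0714 and the exact test of the rank sums p = 0.0556 (2-sided, n = 5 each), where 0.00794 is the smallest p possible. The SD of Hamp within groups was 1.34, and 16 probe sets of the table had a larger one. The median SD was 0.136 over all probe sets and 0.447 over those past the rank products, which do not weigh this spread.

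The size of the Hamp difference depended on pair-fed rat 4. Without it the log2 fold change was -0.55 (SE 0.253), a level 1.46-fold lower, with a rank products FDR of 0.0472 and an exact permutation p of 0.119. With each rat left out in turn the difference ranged from -1.69 to -0.55 and stayed below 0, and the rank products call was kept in all 10 cases. The exact permutation p was under 0.05 in 2 of the 10, without pair-fed rat 1 (p = 0.0238) and without pair-fed rat 3 (p = 0.0317).

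**Figure D1:**
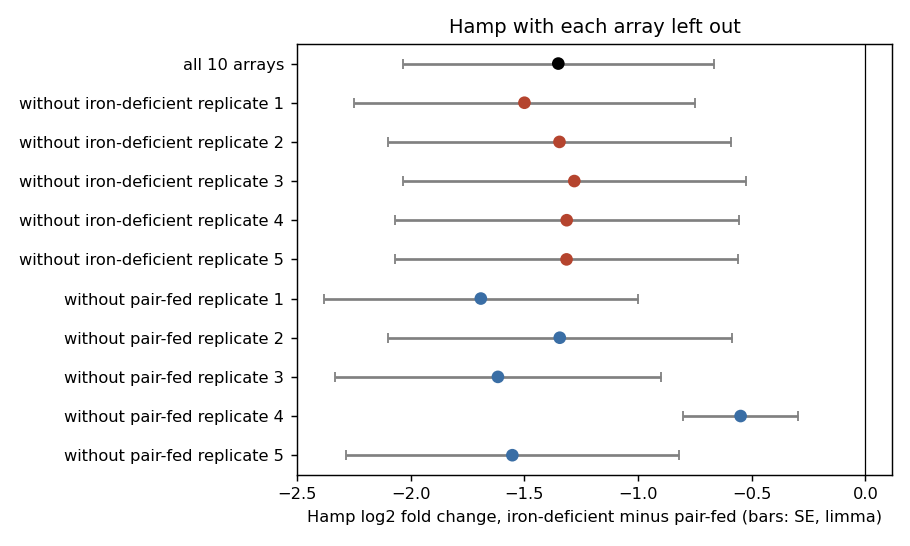
Log2 fold change of Hamp (iron-deficient minus pair-fed, horizontal axis) with all 10 arrays and with each array left out, points for the difference of means and bars for the SE from limma. All differences lie below 0, and the one without pair-fed rat 4, at -0.55, is the nearest to 0.

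Markers of blood cells were high in some of the rats that were high in Hamp. Of the 6 measured red cell markers 4 were down-regulated (Alas2, Hemgn, Slc4a1 and Hbb, genes of heme synthesis, the red cell lineage, its membrane and hemoglobin). The mean of the 6 markers was 7.09 ± 0.24 in the iron-deficient group and 7.78 ± 0.37 in the pair-fed group (SD, n = 5 each), with ranges of 6.82 to 7.46 and 7.19 to 8.14. The 2 highest means were those of pair-fed rat 2 (8.14) and pair-fed rat 4 (8.01), the 2 rats highest in Hamp, though in the reverse order. Iron-deficient rat 1, next highest in Hamp (6.61), did not share this. It read below all pair-fed rats in Alas2 (8.03), Hemgn (5.10), Hbb (13.39) and Gata1 (3.97). In Slc4a1 (7.13) and Klf1 (5.09) it lay above pair-fed rat 1 only.

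The 7 lymphocyte and neutrophil markers averaged 5.21 ± 0.21 in the iron-deficient group and 5.29 ± 0.23 in the pair-fed group (SD, n = 5 each), ranged from 5.04 to 5.55 and from 5.08 to 5.67, and pair-fed rat 4 was the highest. S100a8, a calcium-binding protein abundant in neutrophils, read 5.82, 4.57, 4.75, 4.36 and 4.49 in iron-deficient rats 1 to 5, against 4.37, 5.22, 4.72, 6.01 and 4.66 in pair-fed rats 1 to 5. Its partner S100a9 read 7.20, 6.14, 6.17, 5.88 and 5.83 in iron-deficient rats 1 to 5, against 5.76, 6.67, 6.22, 7.53 and 5.97 in pair-fed rats 1 to 5. For both genes the highest 3 rats were pair-fed rat 4, iron-deficient rat 1 and pair-fed rat 2, the same 3 rats that were highest in Hamp. The other 5 markers of the list did not all share this order. Cd79b had the same highest 3 rats (6.13 in pair-fed rat 4) and Cd3e was highest in pair-fed rat 4 (5.31), whereas Cd8a was highest in iron-deficient rat 3 (5.06, against 4.61 in pair-fed rat 4), Nkg7 in iron-deficient rat 5 (5.34, against 5.06 in pair-fed rat 4) and Gzmb in pair-fed rat 1 (5.21). S100a8 and S100a9 did not pass the rank products (S100a8 log2 fold change -0.20, S100a9 -0.18), and they were singled out after their values had been seen.

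Acute phase genes, which the liver makes in inflammation, were mixed in sign by gene. Their list mean was 12.76 ± 0.05 in the iron-deficient group and 12.83 ± 0.02 in the pair-fed group (SD, n = 5 each). The exact permutation test of this mean (2-sided) gave p = 0.0159. Pair-fed rat 4, at 12.80, was the lowest of its group. By gene the median log2 fold change was -0.003, with 6 negative and 6 positive differences. Of the 12 measured genes 2 were down-regulated, Orm1 (log2 fold change -0.51) and A2m (-0.45). In pair-fed rat 4 Orm1 read 12.85, the highest of all rats, and A2m read 10.19, the lowest of all rats. The part of these blood cell and acute phase levels in the Hamp result was not tested.

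The array of pair-fed rat 4 did not stand apart in its mean correlation with the other arrays over the whole table. This was 0.994, and those of all arrays ranged from 0.992 to 0.994. The correlation is set mostly by differences between probe sets, so it can hardly show a deviant array. The 3' minus 5' difference of the GAPDH controls, a sign of RNA degradation, was 0.09 in pair-fed rat 4, the highest of its group. It ranged from -0.03 to 0.36 in the iron-deficient group and from -0.05 to 0.09 in the pair-fed group. That of the beta-actin controls was 1.33 in this rat, the highest of its group, and it ranged from 1.16 to 1.74 in the iron-deficient group and from 1.08 to 1.33 in the pair-fed group.

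**Figure D2:**
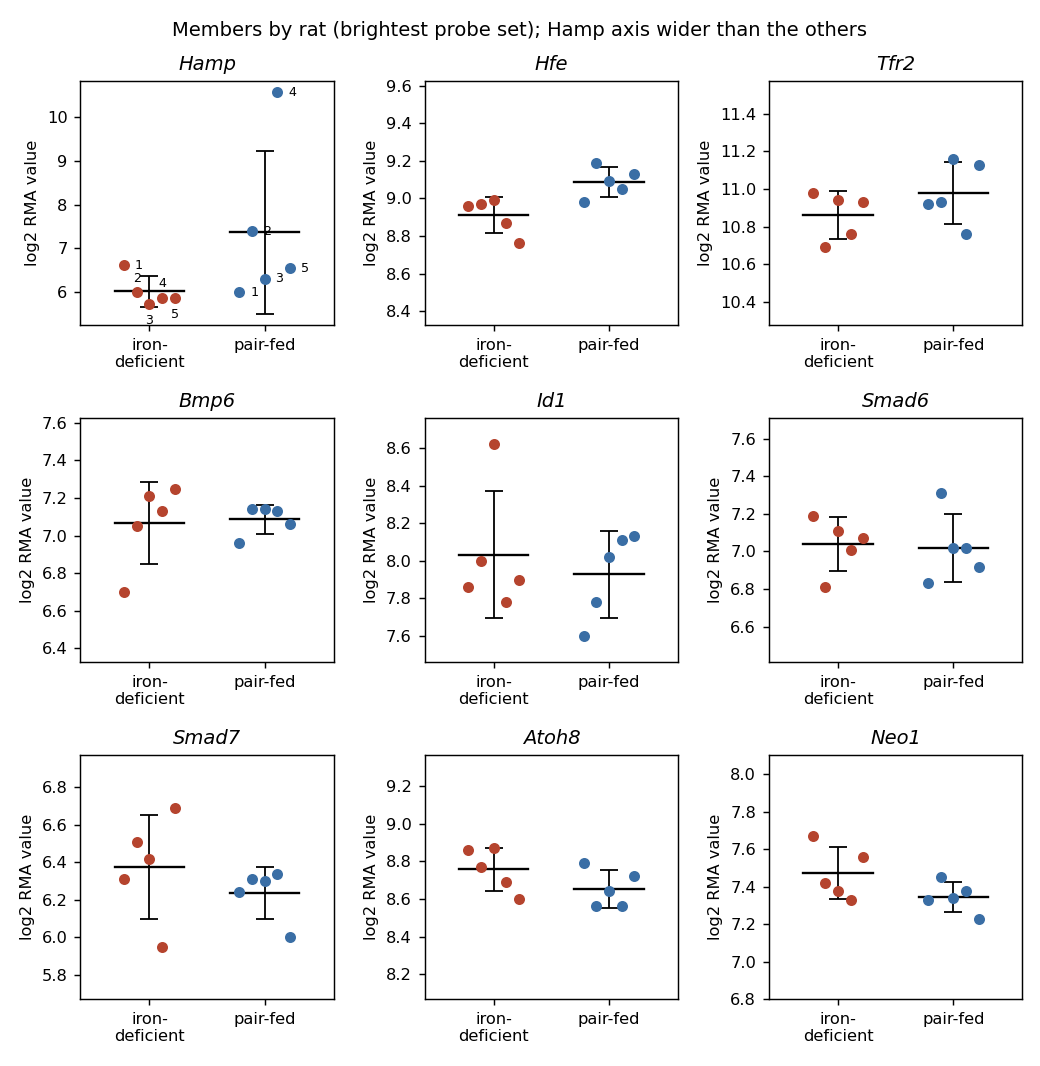
Log2 RMA values of the 9 measured members (brightest probe set) in each rat, with the iron-deficient group left of the pair-fed group, points for rats, lines for means and bars for the SD (n = 5 each); numbers beside the Hamp points are the rats. The vertical axis of Hamp is wider than the others, pair-fed rat 4 lies at 10.57 there, and both groups overlap in each panel.

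Hfe and Tfr2 encode proteins by which hepatocytes sense iron-loaded transferrin, and loss of either lowers hepcidin. Hfe (1370772_a_at) read 8.96, 8.97, 8.99, 8.87 and 8.76 in iron-deficient rats 1 to 5, against 8.98, 9.19, 9.09, 9.05 and 9.13 in pair-fed rats 1 to 5. The groups overlapped by 1 pair of the 25, as pair-fed rat 1 lay just under iron-deficient rat 3, and all 5 iron-deficient rats lay below the pair-fed median. The means were 8.91 ± 0.10 in the iron-deficient group and 9.09 ± 0.08 in the pair-fed group (SD, n = 5 each), a log2 fold change of -0.18 (SE 0.067).

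Hfe did not pass the rank products (FDR 0.885), and its limma p was 0.0220 with an adjusted p of 0.662. The exact permutation test gave p = 0.0159 (2-sided, n = 5 each), and with each rat left out it stayed between 0.00794 and 0.0317. At an unadjusted limma p under 0.05, 3.77% of all probe sets were lower and 3.21% higher in the iron-deficient group. Of the members' 19 probe sets 2 were lower (Hfe and 1 of Smad6) and 0 higher.

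Tfr2 (1380066_at) read 10.98, 10.69, 10.94, 10.76 and 10.93 in iron-deficient rats 1 to 5, against 10.92, 10.93, 11.16, 10.76 and 11.13 in pair-fed rats 1 to 5. The groups overlapped widely, and the 2 highest rats were pair-fed rats 3 and 5. For Tfr2 the log2 fold change was -0.12 (SE 0.0894; exact permutation test, 2-sided, p = 0.270), and pair-fed rat 4, highest in Hamp, had the lowest Tfr2 of its group.

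Bmp6, the ligand, differed little by diet. Its brightest probe set (1378827_at) read 6.70, 7.05, 7.21, 7.13 and 7.25 in iron-deficient rats 1 to 5, against 6.96, 7.14, 7.14, 7.13 and 7.06 in pair-fed rats 1 to 5. Iron-deficient rat 1 was the lowest of all rats and the groups overlapped throughout. The log2 fold change was -0.02 (SE 0.0966; exact permutation test, 2-sided, p = 0.897), and the other 3 probe sets gave 0.06, 0.02 and -0.08, so that the 4 did not share a sign. In one of these (1388201_at) pair-fed rat 4 read 6.19 and the other pair-fed rats 5.80 to 5.81, while the iron-deficient rats read 5.71 to 6.11.

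Neo1 encodes neogenin, a receptor that binds hemojuvelin. Its brightest probe set (1392770_at) read 7.67, 7.42, 7.38, 7.33 and 7.56 in iron-deficient rats 1 to 5, against 7.33, 7.45, 7.34, 7.38 and 7.23 in pair-fed rats 1 to 5. The 2 highest rats were iron-deficient and the rest were mixed. Its log2 fold change was 0.13 (SE 0.0763; exact permutation test, 2-sided, p = 0.143), and the other 2 probe sets gave 0.10 and -0.08.

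Id1, Smad6, Smad7 and Atoh8 are targets that BMP-SMAD signalling switches on in liver. Id1 (1387028_a_at), an inhibitor of basic helix-loop-helix factors, read 7.86, 8.00, 8.62, 7.78 and 7.90 in iron-deficient rats 1 to 5, against 7.60, 7.78, 8.02, 8.11 and 8.13 in pair-fed rats 1 to 5. Iron-deficient rat 3 alone was far above the rest, and the mean and the median differed in sign. The log2 fold change was 0.10 (SE 0.155; exact permutation test, 2-sided, p = 0.635), the difference of medians was -0.12, and without iron-deficient rat 3 the difference of means was -0.04.

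Smad6 and Smad7 encode inhibitory SMADs that feed back on the pathway. The brightest probe set of Smad6 (1375121_at) read 7.19, 6.81, 7.11, 7.01 and 7.07 in iron-deficient rats 1 to 5, against 6.83, 7.31, 7.02, 7.02 and 6.92 in pair-fed rats 1 to 5, with no separation of the groups. Its log2 fold change was 0.02 (SE 0.0973; exact permutation test, 2-sided, p = 0.881). The other 3 probe sets gave -0.03, -0.19 and -0.01; the one at -0.19 (1377467_at, SE 0.0862) had a limma p of 0.0499, an adjusted p of 0.714 and an exact permutation p of 0.0635 (2-sided, n = 5 each).

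Smad7 (1368896_at) read 6.31, 6.51, 6.42, 5.95 and 6.69 in iron-deficient rats 1 to 5, against 6.24, 6.31, 6.30, 6.34 and 6.0 in pair-fed rats 1 to 5. The iron-deficient group held both the highest and the lowest rat. The log2 fold change was 0.14 (SE 0.122; exact permutation test, 2-sided, p = 0.310), and the other 2 probe sets, both dim (a mean log2 value under 5), gave -0.01 and 0.17.

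Atoh8 (1373287_at), a basic helix-loop-helix factor that can activate the hepcidin promoter, read 8.86, 8.77, 8.87, 8.69 and 8.60 in iron-deficient rats 1 to 5, against 8.79, 8.56, 8.64, 8.56 and 8.72 in pair-fed rats 1 to 5. The 2 lowest rats, pair-fed rats 2 and 4, were the 2 highest in Hamp. Atoh8 had a log2 fold change of 0.11 (SE 0.0739; exact permutation test, 2-sided, p = 0.159).

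By gene, 4 of the 9 measured members had a negative and 5 a positive difference, with a median of 0.02, against a median of 0.00 over all probe sets, 48.6% of which were lower. In 0 of the members' 19 probe sets did the groups separate without overlap, against 0.799% of all probe sets that were lower and 0.493% that were higher. Of the 19 probe sets 4 were dim, 1 of Smad6, 2 of Smad7 and 1 of Neo1, and 15 were not.

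**Figure D3:**
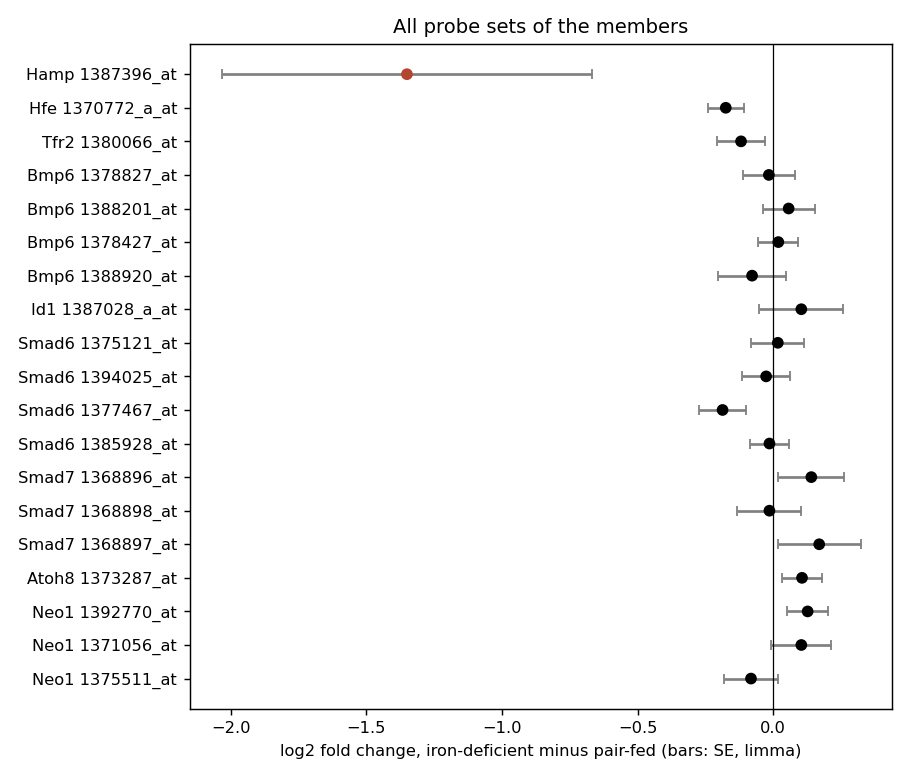
Log2 fold change (iron-deficient minus pair-fed) of all 19 probe sets of the measured members, with the SE from limma as bars and the down-regulated probe set in red. Hamp lies at -1.35 with the widest bar, and the other 18 probe sets lie between -0.19 and 0.17.

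A call for Hamp and none for another member does not show that the 2 genes changed differently, so the per-rat difference of Hamp and each other member was compared between the diets. This difference of changes ranged from -1.18 (against Hfe) to -1.49 (against Smad7). The raw exact permutation p (2-sided, n = 5 each) was 0.0159 to 0.183, and after Benjamini-Hochberg adjustment over the 8 comparisons 0 passed, with adjusted p-values of 0.116 to 0.183. Without pair-fed rat 1, 4 of the 8 passed (Smad6, Smad7, Atoh8 and Neo1, each at an adjusted exact permutation p of 0.0317). Without that rat Hamp by itself had an exact permutation p of 0.0238. The 8 comparisons share the Hamp values and are not separate results for the other members. Without pair-fed rat 4 the differences were -0.72 to -0.36.

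Across the 10 rats Hamp was set against each of the other 8 members, and 0 of the 8 relations passed after adjustment. The most negative Pearson r was that with Atoh8 (-0.53, Spearman rho -0.47) and the most positive that with Hfe (0.37, rho 0.56). The lowest adjusted permutation p over the 8 relations was 0.695 for Pearson's r (Atoh8) and 0.699 for Spearman's rho. With the mean of each diet removed, the largest r in size was that with Tfr2 (-0.56, exact permutation p = 0.167 before adjustment), r was -0.39 for Atoh8 and 0.01 for Hfe, and the lowest adjusted exact permutation p was 0.790.

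The other values of r were -0.24 for Tfr2, 0.17 for Smad6, 0.05 for Id1, -0.03 for Neo1, 0.02 for Bmp6 and -0.02 for Smad7. The Spearman rho was 0.15 for Tfr2, 0.21 for Smad6, -0.09 for Id1, 0.13 for Neo1, -0.39 for Bmp6 and -0.13 for Smad7. Pair-fed rats 4 and 2 were the 2 farthest from the Hamp median, and over the 8 rats without them r was 0.60 for Tfr2, 0.57 for Hfe, 0.09 for Atoh8 and -0.67 for Bmp6. The sign for Tfr2, Atoh8 and Bmp6 thus rested on those 2 rats. A further Bmp6 probe set (1388201_at) had an r of 0.55, or 0.76 with diet means removed (exact permutation test, p = 0.0379, not adjusted), and 0.07 without the 2 rats.

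**Figure D4:**
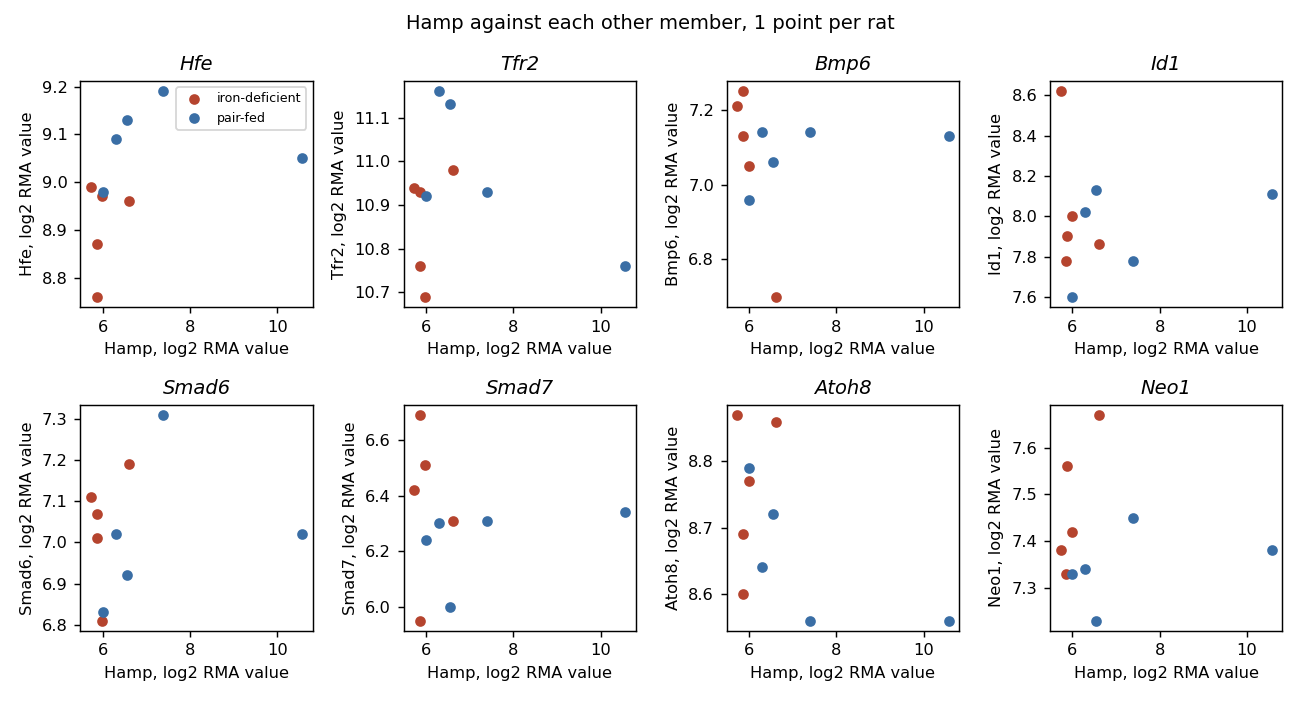
Log2 RMA value of each other member (vertical axes) against that of Hamp (horizontal axes), 1 point per rat, with the iron-deficient group in red and the pair-fed group in blue. In each panel 1 pair-fed rat, at a Hamp value of 10.57, lies far right of the other 9.

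The other genes of the pathway were taken from 10 lists of 108 genes, of which 92 were measured. By the rank products 0 were down-regulated and 1 was up-regulated, Bmpr2, and in 0 did the groups separate without overlap. Their median log2 fold change was 0.05, with 30 negative and 62 positive differences, and 7 of the 92 had an unadjusted limma p under 0.05, as had 2168 of all 31042 probe sets. Over all probe sets 48.6% were lower. Markers of other liver cells differed in sign by cell type without a call. Differences were positive in 7 of 8 endothelial markers (median 0.10) and 6 of 7 stellate cell markers (median 0.19). They were negative in 5 of 5 Kupffer cell markers (median -0.13). The exact permutation test of the list means (2-sided) gave p = 0.103, 0.135 and 0.317 for these lists. Markers of a list share their arrays, so their signs are not independent. Pair-fed rat 1 was the highest pair-fed rat in all 5 Kupffer cell markers, with Cd68 at 9.79 and Clec4f at 11.73. The part of these cell markers in the pathway values was not tested.

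Receptors and co-receptors held the 1 gene that passed, of 12 measured. Bmpr2, the type II BMP receptor, read 6.95, 7.18, 7.21, 6.72 and 7.48 in iron-deficient rats 1 to 5, against 6.33, 6.85, 6.45, 6.61 and 6.90 in pair-fed rats 1 to 5. All 5 iron-deficient rats lay above the pair-fed median, and the groups overlapped in 2 of the 25 pairs. The log2 fold change was 0.48 (SE 0.145), with a rank products FDR of 0.0454, a limma adjusted p of 0.601 and an exact permutation p of 0.0317 (2-sided, n = 5 each).

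The call of Bmpr2 was lost without 7 of the 10 rats, one at a time. The rank products FDR was 0.0555, 0.159, 0.169 and 0.290 without iron-deficient rats 1, 2, 3 and 5, and 0.130, 0.104 and 0.0688 without pair-fed rats 1, 3 and 4. The difference itself stayed between 0.39 and 0.58. With the rats blocked by replicate number the FDR of Bmpr2 was 0.0586.

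Hjv, which encodes the BMP co-receptor hemojuvelin, read 10.43, 10.33, 10.42, 10.48 and 10.40 in iron-deficient rats 1 to 5, against 10.20, 10.15, 10.18, 10.44 and 10.05 in pair-fed rats 1 to 5. Every iron-deficient rat lay above 4 of the 5 pair-fed rats, and pair-fed rat 4, highest in Hamp, was the highest of its group. For Hjv the log2 fold change was 0.21 (SE 0.0742; rank products FDR 0.719; exact permutation test, 2-sided, p = 0.0397), and that of Bambi, a decoy receptor, was 0.12.

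The list of BMP ligands, which also holds activin subunits, Tgfb1 and Gdf15, had 0 of 9 genes past the rank products. Bmp7 had a log2 fold change of -0.26 (SE 0.0869; exact permutation test, 2-sided, p = 0.0159; rank products FDR 0.490), and Inhba, which encodes an activin subunit, 0.19. SMAD proteins and their regulators had 0 of 12. Tob1, which encodes an antiproliferative protein that binds SMADs, had 0.28 (SE 0.0840; exact permutation test, 2-sided, p = 0.0238; rank products FDR 0.421), and the phosphatase gene Ppm1a 0.17.

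Other SMAD target genes had 0 of 8 past the rank products, with Dusp1, a phosphatase of MAP kinases, at 0.33 and the stress factor Atf3 at -0.32. Dusp1 was up-regulated when pair-fed rat 3 was left out. Extracellular BMP inhibitors had 0 of 10, with Sostdc1 at 0.15 and, second in size, Fstl1 at 0.07. Proteases and inhibitors acting on hemojuvelin had 0 of 5, with Furin, which cleaves it, at 0.20 and the serine protease inhibitor Spint2 at 0.17.

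The IL-6 and STAT3 branch had 0 of 11 genes past the rank products, with Stat3 at 0.35 (SE 0.217; exact permutation test, 2-sided, p = 0.222) and Il1r1 at 0.22. Il6 itself read 3.43 to 3.73 in the iron-deficient group and 3.53 to 3.71 in the pair-fed group, dim on all arrays. Iron sensing and transport had 0 of 8, with Tfrc, the transferrin receptor, at 0.18 (SE 0.0913; exact permutation test, 2-sided, p = 0.0556) and the iron importer Slc11a2 at 0.10.

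Hepatocyte factors that act on the Hamp promoter had 0 of 9 past the rank products, with Onecut1 at 0.29 and Cebpa at 0.24. Onecut1 varied widely, from 8.91 to 11.77 in the iron-deficient group and from 8.97 to 10.98 in the pair-fed group. Its rank products FDR was 0.0771 with all rats. It passed without iron-deficient rat 3 (0.0314), pair-fed rat 3 (0.0294) or pair-fed rat 5 (0.0326), and with the rats blocked by replicate number (0.0226), while its difference was -0.11 without iron-deficient rat 2. Growth factor and steroid inputs on hepcidin had 0 of 8, with the dim Esr1 at 0.22 and Met, the receptor of hepatocyte growth factor, at 0.19.

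**Figure D5:**
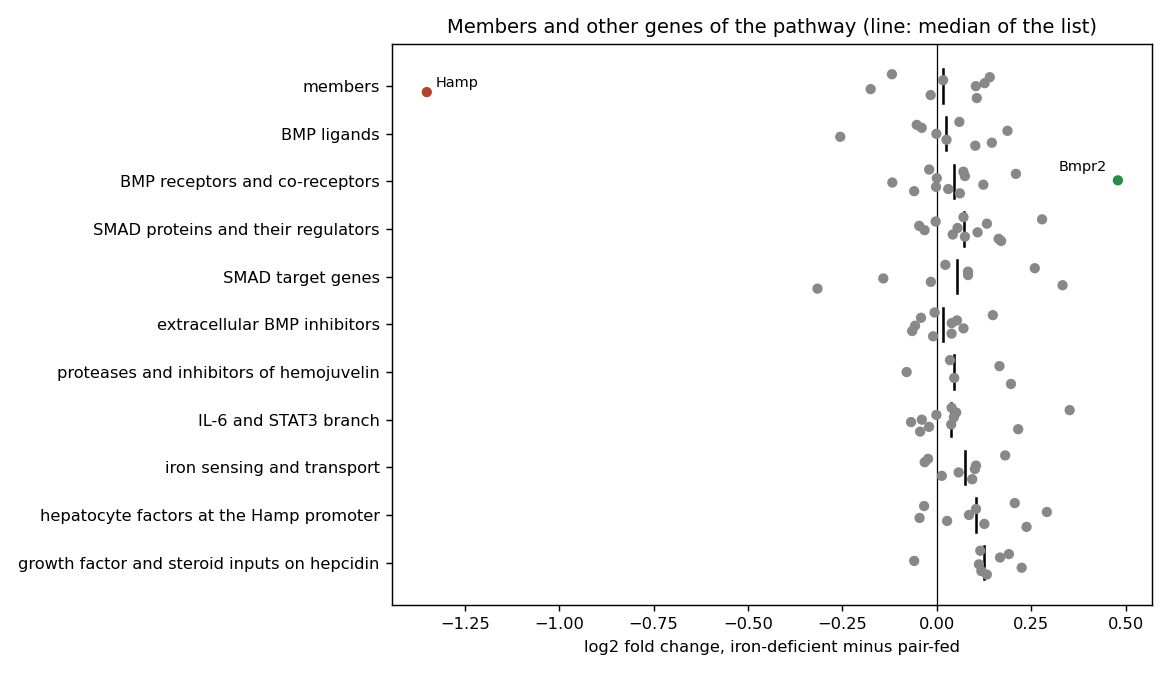
Log2 fold change (iron-deficient minus pair-fed, horizontal axis) of the members and of the other genes of the pathway in 10 lists, 1 point per gene, with the median of each list as a line, down-regulated genes in red, up-regulated genes in green and the rest in grey. Hamp at -1.35 and Bmpr2 at 0.48 are the 2 genes past the rank products, and the list medians lie between 0.02 and 0.13.

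Pair-fed rat 4 lay far from the other 9 rats in Hamp. A Pearson r of large size over the 10 rats therefore called for an extreme in this rat as well. The 10 genes named here all had it. They are both ends of a ranking of the 20826 probe sets paired with 1 gene, and no p was computed. By Pearson r, given as a description of 10 points that share their arrays, the 5 highest were Efhc2 (0.96), LOC100910554 (0.95), Rlim (0.92), Kcna6 (0.91) and Cidea (0.90), and the 5 lowest were Trib2 (-0.92), Mfsd9 (-0.92), Pik3r1 (-0.89), Prkd2 (-0.89) and Ccdc81 (-0.89). Cidea, a lipid droplet protein, read 7.52 in pair-fed rat 4 and 5.85 to 6.54 in the other 9 rats. Pik3r1, the regulatory subunit of phosphoinositide 3-kinase, read 7.20 in pair-fed rat 4 and 8.89 to 9.55 in the other 9. Without pair-fed rats 4 and 2, r ranged from 0.32 (Cidea) to 0.71 (LOC100910554) for the 5 highest. For the 5 lowest it was -0.69 for Mfsd9, -0.58 for Prkd2, -0.44 for Ccdc81, -0.24 for Trib2 and 0.13 for Pik3r1, and none of the 10 genes passed the rank products.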

How the data were processed

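The authors deposited log2 values, made by RMA with Bioconductor; background correction and normalization settings were not given in the sources used here. Every column was used (0 left out). Tests covered 31042 probe sets, without 57 controls; 20826 were paired with 1 gene. Rank products (25 pairs, 100 permutations within arrays, FDR under 0.05) ran in Python 3.11.15 (numpy 2.4.6; scipy 1.17.1; pandas 2.3.3; figures by matplotlib 3.10.9). SE and adjusted p came from limma 3.58.1 in R 4.3.3 (Benjamini-Hochberg over all probe sets). Permutation p of correlations used 100000 resamples (exact within diets: 14400). Both fits were tested on simulated data.

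Members and lists were chosen with earlier results of these data known. Genes named are all members, in each pathway list up to 4 genes past the rank products or, where under 2 passed, the 2 largest differences among the others, and the 5 highest and 5 lowest r with Hamp. Replicates are separate rats; the number of arrays limits the precision. Alternatives were other normalizations, filters, tests, a replicate block and leaving out each rat; the test of rank sums for single values was chosen after seeing the data.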

Additional observations from a re-analysis of the deposited data

Results flagged for a closer look

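Of 38 groups of 5 values, 1 per diet for each probe set of the members, 3 had 1 rat far from the others by Dixon's criterion, which chance gives in about 1 of 20 groups. Neo1 (1371056_at) read 6.63 in pair-fed rat 3, below the other pair-fed rats. Id1 (1387028_a_at) read 8.62 in iron-deficient rat 3, above the other iron-deficient rats. Bmp6 (1388201_at) read 6.19 in pair-fed rat 4, the rat with the highest Hamp. The Hamp values of pair-fed rat 4 and iron-deficient rat 1, with gaps of 0.696 and 0.703 of their group's range, lay just under the critical value of 0.71.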

How the results depend on the processing

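Median centring could not change the rank products call of Hamp, as it leaves the ranks of pair differences as they were. Averaging of probe sets left the Hamp values unchanged, as Hamp had 1 probe set. The call was kept in both cases. It was also kept after another quantile normalization, removal of dim probe sets, the replicate block and the removal of any 1 rat (log2 fold change -1.69 to -0.55). It was lost, with 0 members called, by the rank sum (difference -1.35, FDR 0.270), limma (-1.35, adjusted p 0.736), limma with array weights (-1.40, adjusted p 0.681) and limma with the replicate block (-1.35, adjusted p 0.734). Rats with the same number did not deviate together (correlations of -0.04 to 0.09). This does not settle whether they were matched in feeding. With the block the rank products called 150 down-regulated probe sets, against 186 without it, and 84 up-regulated, against 94. Up-regulated genes among the other pathway genes were 0 under the rank sum, the 3 limma settings and removal of dim probe sets, and 0 to 2 with 1 rat left out; under the replicate block it stayed 1 but was Onecut1 (FDR 0.0226) in place of Bmpr2 (0.0586). Differences of Hamp and the other members passed in 0 to 4 cases with 1 rat left out. With array weights the difference of Bmp6 (1378827_at) was 0.028 and that of Smad6 (1375121_at) -0.013. The r of Hamp changed sign with diet means removed for Bmp6 (-0.012), Smad7 (0.18) and Neo1 (0.31), with requantiled values for Smad7 (0.0027), and without the 2 rats farthest in Hamp for Tfr2 (0.60), Bmp6 (-0.67), Id1 (-0.17), Atoh8 (0.091) and Neo1 (0.10). With 1 rat left out, r ranged from -0.39 to 0.33 for Tfr2, -0.27 to 0.11 for Bmp6, -0.29 to 0.42 for Id1, -0.20 to 0.14 for Smad7 and -0.074 to 0.15 for Neo1. Likewise differences ranged from -0.062 to 0.075, -0.026 to 0.057 and -0.18 to 0.0025 for Bmp6 (1378827_at, 1378427_at, 1388920_at), -0.044 to 0.17 for Id1, -0.031 to 0.090, -0.086 to 0.026 and -0.066 to 0.023 for Smad6 (1375121_at, 1394025_at, 1385928_at), -0.095 to 0.071 for Smad7 (1368898_at), -0.0067 to 0.18 for Neo1 (1371056_at), -0.011 to 0.12 for Fstl1, -0.11 to 0.61 for Onecut1 and -0.0090 to 0.28 for Met. The cause of these changes was not tested. Of the 3 Smad7 probe sets 2 were dim.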
